A study of Rattus norvegicus with 8 samples.

Results

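The genes described here are 5 genes of the extracellular matrix, the protein scaffold outside cells: Col1a1, Col1a2, Col3a1, Fn1 and Sparc. They were chosen by Ensembl identifier out of the 32883 rat gene identifiers in the count table, and all 5 identifiers are present in it. Cord from Sprague Dawley rats, which are outbred, was sampled in 2 groups, without spinal cord injury (4 libraries) and on day 4 after injury (4 libraries). The series title specifies a T9 hemisection, in which 1 side of the thoracic cord is severed, and upper lumbar tissue, whereas the sample labels say upper spinal cord. The question was how the injury changes the transcriptome of cord that was itself intact. No transgene, drug or further treatment is named for either group, and the sources used here give neither the rats' age nor whether uninjured rats had sham surgery. Separate animals are not stated for the libraries either, so p-values cover only the spread between libraries, which may be technical.

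Type I collagen is built from the chains encoded by Col1a1 and Col1a2, and type III collagen from the chain encoded by Col3a1. Both are fibrillar collagens, made in the central nervous system mainly by cells of the meninges and of the vessel wall, and they build up in the fibrous part of a scar where the cord is damaged. Fn1 encodes fibronectin, a glycoprotein that links collagen to integrin receptors on cells and reaches tissue from blood plasma as well as from local synthesis. Sparc encodes a collagen-binding matricellular protein that glia and endothelial cells of the healthy nervous system also make.

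Uninjured libraries held 112264 to 221177 UMIs and injured libraries 195113 to 320199. A UMI (unique molecular identifier) stands for 1 captured transcript unless transcripts of a gene share a tag. The highest count of any gene in a library was 3727 to 4047 UMIs, so sharing can lower the counts of abundant genes. The injured libraries were deeper on average, 260465 ± 51766 against 150984 ± 48037 UMIs (SD, n = 4 each, two-sided exact permutation p = 0.0571). Levels are therefore given as CPM, the UMIs of a gene per 1000000 UMIs of its library. The 5 genes together took 0.127% ± 0.0138 (SD, n = 4) of all UMIs in uninjured and 0.239% ± 0.0528 (SD, n = 4) in injured cord. Because these are bulk samples, more cells of a type and more RNA per cell cannot be told apart. The table pairs no identifier with a gene name, so the names of the 5 genes come with their identifiers from the rule that chose them, and markers of the labelled tissue and of other cell types were not analysed here.

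After injury, Col1a1 and Col3a1 rose more than 3-fold and no gene of the set fell. Of the 5 genes, 3 passed the filter on low counts (Col1a1, Col3a1 and Sparc), Fn1 had too few UMIs for it, and Col1a2 had none in any library. Of the 3 that passed, 2 were called higher and 0 lower (edgeR quasi-likelihood test, adjusted p below 0.05, 3 higher and 0 lower at an unadjusted p under 0.05; DESeq2 also called 2 and 0). Among all 3073 genes tested, 2.28% were called higher and 0.195% lower. At an unadjusted p under 0.05 (edgeR), 261 of the 3073 were higher and 180 lower. DESeq2 called 82 higher and 19 lower over all genes. The 4 genes with any count had every injured library above every uninjured library, a pattern shown by 4.2% of the 12612 genes with a count. A gene with few uninjured UMIs can pass such rules only where it is high in injured cord, so these shares place the genes and test nothing about the set.

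**Figure D1:**
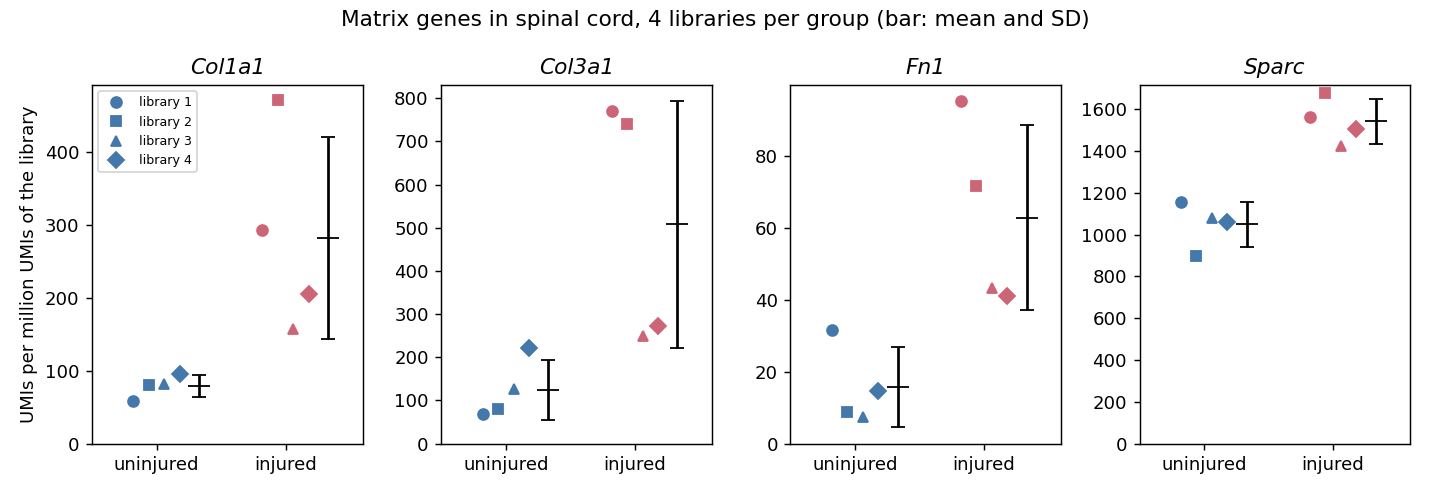
Level of each gene in every library, in CPM (vertical axes start at 0 and differ between panels), with uninjured libraries in blue, injured libraries in red, marker shapes for libraries 1 to 4, and bars for the mean and SD. Injured libraries 1 and 2 lie above 3 and 4 for all 4 genes, and the injured Sparc values lie between 1423 and 1677 CPM.

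Col1a1 (ENSRNOG00000003897) encodes the alpha-1 chain of type I collagen, the main fibre-forming collagen of scar and connective tissue. It stood at 58.8, 80.2, 81.8 and 95.6 CPM in uninjured libraries 1 to 4, from 9 to 13 UMIs each. In injured libraries 1 to 4 it stood at 293, 472, 158 and 205 CPM, from 40 to 151 UMIs each. The lowest injured value thus exceeded the highest uninjured one, and the injured values spread over a nearly 3-fold range while the uninjured ones stayed close together. The means were 282 ± 138 CPM after injury and 79.1 ± 15.2 CPM without it (SD, n = 4, two-sided exact permutation p = 0.0286, the smallest that 4 against 4 allows). The fitted log2 fold change was 1.72 (SE 0.35), a 3.3-fold rise (edgeR adjusted p = 0.0127). Only 1.14% of the tested genes had a larger fitted rise. The call was lost without uninjured library 1 (log2 fold change 1.51, edgeR adjusted p = 0.0695).

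Col3a1 (ENSRNOG00000003357) encodes the chain of type III collagen, which is laid down together with type I collagen and early in repair. Its uninjured values were 67.8, 80.2, 126 and 221 CPM in libraries 1 to 4, from 9 to 30 UMIs. Its injured values were 770, 740, 248 and 272 CPM, from 53 to 237 UMIs. Injured libraries 1 and 2 were far above all others, while injured libraries 3 and 4 lay only slightly above uninjured library 4. The means were 507 ± 286 CPM after injury and 124 ± 69.3 CPM without it (SD, n = 4, two-sided exact permutation p = 0.0286). The fitted log2 fold change was 1.90 (SE 0.43), a 3.72-fold rise (edgeR adjusted p = 0.023), and 0.651% of the tested genes rose by more. This call was lost in 5 of the 8 fits that left out 1 library. The log2 fold change and edgeR adjusted p were 1.59 and 0.0962 without uninjured 1, 1.74 and 0.103 without uninjured 2, and 1.92 and 0.0844 without uninjured 3. They were 1.64 and 0.0788 without injured 1, and 1.67 and 0.0715 without injured 2.

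Col1a2 (ENSRNOG00000011292) encodes the alpha-2 chain, the partner of the Col1a1 product in type I collagen. It had 0 UMIs in each of the 8 libraries. A count of 0 allows up to 2.88 CPM over the injured and 4.97 CPM over the uninjured libraries (3 counts of the group's UMIs, counting error only). These limits hold for UMIs assigned to this identifier and not for expression of the gene, because the libraries read 3' ends and where the counting annotation ends Col1a2 was not checked. No comparison between groups can be made for this gene.

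Fn1 (ENSRNOG00000014288) encodes fibronectin and rested on few UMIs. Uninjured libraries 1 to 4 held 7, 1, 1 and 2 UMIs, or 31.6, 8.91, 7.44 and 14.7 CPM. Injured libraries 1 to 4 held 26, 23, 11 and 8 UMIs, or 95.3, 71.8, 43.4 and 41.0 CPM. All injured values lay above all uninjured ones, but the exact 95% binomial interval of injured library 4, 17.7 to 80.8 CPM, overlaps that of uninjured library 1, 12.7 to 65.2 CPM. The means were 62.9 ± 25.8 CPM after injury and 15.7 ± 11.1 CPM without it (SD, n = 4, two-sided exact permutation p = 0.0286). In the fit without a filter on low counts, which tested all 12612 genes with a count and called 1.78% of them higher, Fn1 rose by 1.79 on the log2 scale (SE 0.48, edgeR adjusted p = 0.0155). The call was lost with DESeq2 (adjusted p = 0.171) and with all libraries thinned to 112264 UMIs (edgeR adjusted p = 0.295). It was also lost without uninjured 2 or 3 and without injured 1 or 2, with log2 fold changes of 1.65, 1.61, 1.57 and 1.68 and edgeR adjusted p from 0.0929 to 0.139. Without uninjured library 1, which held 7 of the 11 uninjured UMIs, the log2 fold change was 2.53 (edgeR adjusted p = 0.017).

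Sparc (ENSRNOG00000012840) encodes a secreted protein that binds collagen and regulates its assembly and the contact of cells with matrix. Uninjured libraries 1 to 4 stood at 1157, 900 (from 101 UMIs), 1078 and 1059 CPM. Injured libraries 1 to 4 stood at 1561, 1677, 1423 and 1507 CPM, from 294 to 537 UMIs. The groups did not overlap, and the spread within each was small, with means of 1542 ± 106 CPM after injury and 1049 ± 108 CPM without it (SD, n = 4, two-sided exact permutation p = 0.0286). Across all genes, however, its fitted log2 fold change was 0.42 (SE 0.19, a 1.34-fold difference) and did not pass the threshold (edgeR adjusted p = 0.315, unadjusted p = 0.0387), and 16.6% of the tested genes had a larger fitted rise. With the number shared by injured and uninjured libraries as a block, Sparc did pass, with 0.43 on the log2 scale (SE 0.13, edgeR adjusted p = 0.0341). That fit called 3 of the 3 tested genes of the set higher and 6.77% of all genes.

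The upstream sequences of Sparc and Col1a2 are shown to set the gene with a narrow spread in both groups beside the one without a count. They are RefSeq sequences of assembly GRCr8, matched by symbol for 2 of the 5 genes, with no entry for Col1a1, Col3a1 and Fn1. The files' own build is Rnor_6.0, so these positions belong to GRCr8 only. The Sparc sequence is the 250 bases before the annotated start, chr10:40038817-40039066 on the minus strand, with the GGA motif (GGAGG on either strand) in capitals. The Col1a2 sequence is the first 100 of its 250 bases, chr4:33518307-33518406 on the plus strand, with a TATA box and a CCAAT box, the latter on the opposite strand, in capitals.
Sparc: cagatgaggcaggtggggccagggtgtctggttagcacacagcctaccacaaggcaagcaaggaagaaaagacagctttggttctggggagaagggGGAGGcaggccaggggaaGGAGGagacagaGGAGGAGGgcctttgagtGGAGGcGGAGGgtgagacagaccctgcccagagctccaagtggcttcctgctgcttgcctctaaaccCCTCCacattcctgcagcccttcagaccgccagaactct
Col1a2: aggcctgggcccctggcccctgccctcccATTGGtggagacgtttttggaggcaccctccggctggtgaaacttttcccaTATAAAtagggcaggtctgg
Over the whole 250 bases and both strands, overlaps between matches included, Sparc held 7 matches to GGAGG, a number reached by 1.52% of the 33469 promoters of that length, while 64.7% hold at least 1. Sparc held no TATA box (TATAAA), which 12.9% of promoters hold. It held no CCAAT box either, against 34% of promoters, and no GC box (GGGCGG), against 30.5%. This says only that these letters are not in this window. Col1a2 held 1 TATA box and 1 CCAAT box as searched, at -170 and -221 from the annotated start, and no GC box. Its 6 matches to the GGA motif are a number reached by 2.83% of promoters. A match is a run of letters and was not tested as a binding site.

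**Figure D2:**
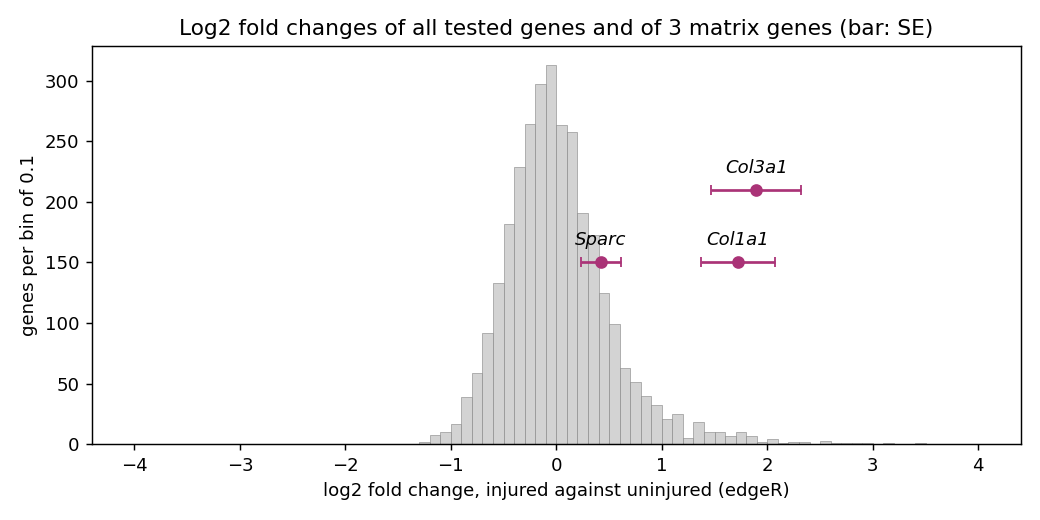
Histogram of fitted log2 fold changes, injured against uninjured, for the 3073 genes tested (grey, genes per bin of 0.1 on the vertical axis), with the 3 matrix genes that passed the filter as points with SE bars, whose height carries no value. Col1a1 at 1.72 and Col3a1 at 1.90 lie in the upper tail, and Sparc at 0.42 lies within the bulk of the distribution.

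The size of the difference depends a little on scaling. The median log2 fold change of all tested genes was -0.03 with TMM and 0.12 with totals alone. Those totals cover the tested genes, which hold 89.0% of all UMIs, whereas CPM values use full library totals. Relative to these medians, Col1a1 was at 1.75 and 1.78, Col3a1 at 1.93 and 1.98, and Sparc at 0.45 and 0.46. In the fit without a filter the median was 0.17, and Fn1 lay 1.63 above it. The order of the genes' log2 fold changes is not resolved between Col1a1 and Col3a1, whose fitted values differ by less than either SE.

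Whether the genes changed unequally was tested on the count ratio of each pair within a library, on the log2 scale with 0.5 added to each count. Of the 6 ratios among the 4 genes with counts, that of Col1a1 to Sparc was higher in all injured than in all uninjured libraries. It went from 0.0508, 0.0891, 0.0759 and 0.0903 in uninjured to 0.188, 0.281, 0.111 and 0.136 in injured libraries 1 to 4. The difference was 1.12 on the log2 scale (two-sided exact permutation p = 0.0286, adjusted over the 6 ratios 0.171). The ratios to Sparc differed by 1.40 for Col3a1 (two-sided exact permutation p = 0.0857) and by 1.25 for Fn1 (p = 0.0571), also 0.171 each after adjustment. Thus no ratio passed after adjustment, and a single ratio at the smallest p that 4 against 4 allows could not have passed. The ratio of Col1a1 to Col3a1 differed by -0.28 between groups (two-sided exact permutation p = 0.429), with SDs of 0.43 in injured and 0.52 in uninjured libraries. Those of Col1a1 and Col3a1 to Fn1 differed by -0.13 and 0.15 (two-sided exact permutation p = 0.857 and 0.914), with SDs of up to 1.19. Counts of 1 or 2 for Fn1 leave these last ratios imprecise.

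Injured and uninjured libraries carry the same numbers, 1 to 4, and the difference between libraries of the same number was uneven for the collagens. Col3a1 was 11.3-fold higher in the injured library for number 1 (95% counting interval 6.72 to 20.6) and 9.23-fold for number 2 (4.78 to 20.4). For number 3 it was 1.96-fold higher (1.14 to 3.58), and for number 4 1.23-fold (0.773 to 1.996), an interval that includes no difference. Col1a1 had folds of 4.99, 5.88, 1.93 and 2.14 for numbers 1 to 4, and its intervals for numbers 1 and 2 (2.76 to 9.77 and 3.02 to 13.1) overlapped those for numbers 3 and 4 (0.971 to 4.17 and 1.12 to 4.37). The intervals of the first pair of Col3a1 folds do not overlap those of the second pair, although they cover counting error only and the numbers were not tested against each other.

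**Figure D3:**
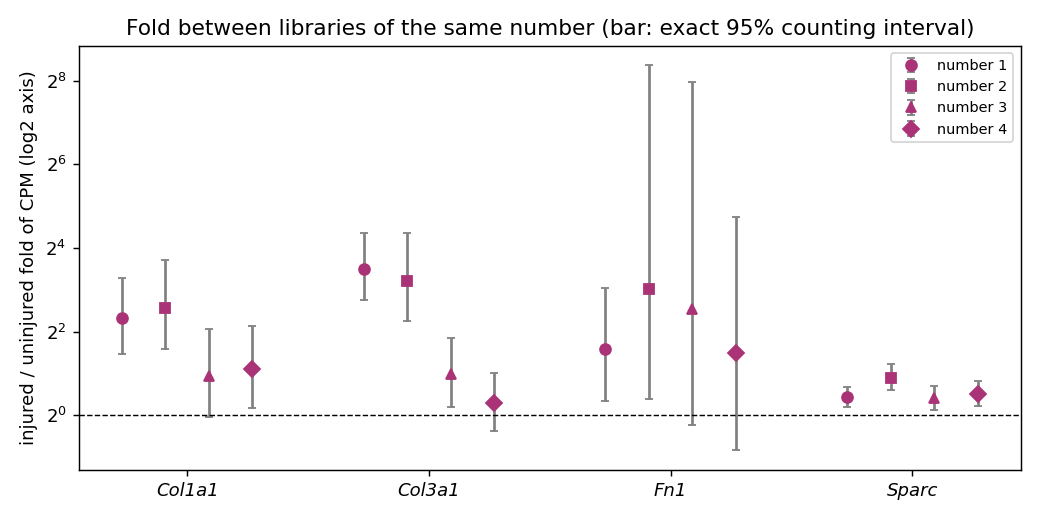
Fold of CPM between the injured and the uninjured library of the same number (log2 vertical axis, dashed line at no difference), for 4 genes and numbers 1 to 4, with exact 95% counting intervals. Col3a1 ranges from 11.3-fold at number 1 to 1.23-fold at number 4, and Sparc from 1.32-fold to 1.86-fold.

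Sparc differed by 1.35, 1.86, 1.32 and 1.42-fold for numbers 1 to 4, and the counting interval of each lay above no difference. Fn1 differed by 3.01, 8.06, 5.83 and 2.79-fold. Its intervals were wide, 1.27 to 8.22 at number 1 and 1.31 to 332 at number 2, and those of numbers 3 and 4 included no difference. For all 4 genes every injured library lay above every uninjured one, so a higher injured value at each number follows under any numbering. Only Col3a1 had counting intervals that did not overlap between numbers 1 and 2 and numbers 3 and 4. Overlap of the other genes' intervals does not show that their folds were equal, and this was not tested.

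Numbers 1 and 2 were set apart from 3 and 4 only after these values were seen. Injured libraries 1 and 2 hold the highest collagen levels, so larger collagen differences there follow from the choice and test nothing. Fitted within numbers 1 and 2 alone, the log2 fold change was 2.46 for Col1a1 and 3.32 for Col3a1, and 5.43% of the genes were called higher. Within numbers 3 and 4 it was 0.86 for Col1a1 and 0.41 for Col3a1, and neither was called. That fit called 0% of 2567 genes higher, with 111 higher at an unadjusted p under 0.05. For Sparc the values were 0.58 (edgeR adjusted p = 0.117) and 0.29 (edgeR adjusted p = 0.927). For Fn1, without the filter, they were 1.75 (edgeR adjusted p = 0.359) and 1.84 (edgeR adjusted p = 0.808). Fn1 had only 1 and 2 UMIs in uninjured libraries 3 and 4, so its fitted values are too imprecise to call alike or unlike. The collagens and Sparc had smaller fitted values in numbers 3 and 4. The difference between the divisions was not tested.

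The spread among injured libraries exceeded counting noise for the collagens. The chi-square per degree of freedom of their counts against library totals, which is about 1 for counting noise, was 38.8 for Col3a1 and 18.2 for Col1a1 in injured cord, and 6.12 and 0.544 in uninjured cord. It was 2.53 and 1.23 for Fn1, and 2.07 and 1.55 for Sparc. This measure grows with the count, and uninjured libraries held 9 to 13 Col1a1 UMIs against 40 to 151 in injured ones, so it does not compare the spread of the groups. The fitted coefficient of variation beyond counting was 0.385 for Col3a1, 0.299 for Col1a1 and 0.194 for Sparc, against a median of 0.229 over all tested genes. Injured libraries 1 and 2, highest for both collagens, were also the deepest of their group (272878 and 320199 UMIs), and the part of depth in this was not tested. Uninjured library 1, the deepest of its group, had the lowest Col1a1 and Col3a1 levels. With every library thinned to 112264 UMIs, Col1a1 had 16 to 47 UMIs in injured and 3 to 11 in uninjured libraries, and Col3a1 29 to 91 and 9 to 26. Sparc then had 171 to 196 and 101 to 138. In this 1 draw these 3 genes did not overlap between groups, Col3a1 only by 29 against 26 UMIs. The share of all genes without overlap at this depth was not counted. Fn1 had 3 to 10 and 1 to 3 thinned UMIs, which touch.

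Deviations from the group means were alike for the collagen pair, with a Pearson correlation of 0.837 between Col1a1 and Col3a1 over the 8 libraries. The other 5 pairs had correlations of 0.139 to 0.381, which at this depth are no finding. The libraries shared their depth and numbers across genes, and no test was made. Among the other 3070 tested genes, ENSRNOG00000000498 deviated most like the mean of the 3 tested genes (r = 0.959 over 8 libraries). Its mean level was 492 ± 86.1 CPM after injury and 333 ± 61.2 CPM without it (SD, n = 4), and its log2 fold change of 0.42 did not pass the threshold (edgeR adjusted p = 0.423). The next, ENSRNOG00000042547 (r = 0.917), had 0 to 54 UMIs per library, and its log2 fold change of 1.70 did not pass either (edgeR adjusted p = 0.321). The gene after it in order (r = 0.892), whose identifier is not printed, did pass, with 1.61 (edgeR adjusted p = 0.0458). These r values were picked as the highest of 3070 over only 8 libraries, so they describe and test nothing.

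**Figure D4:**
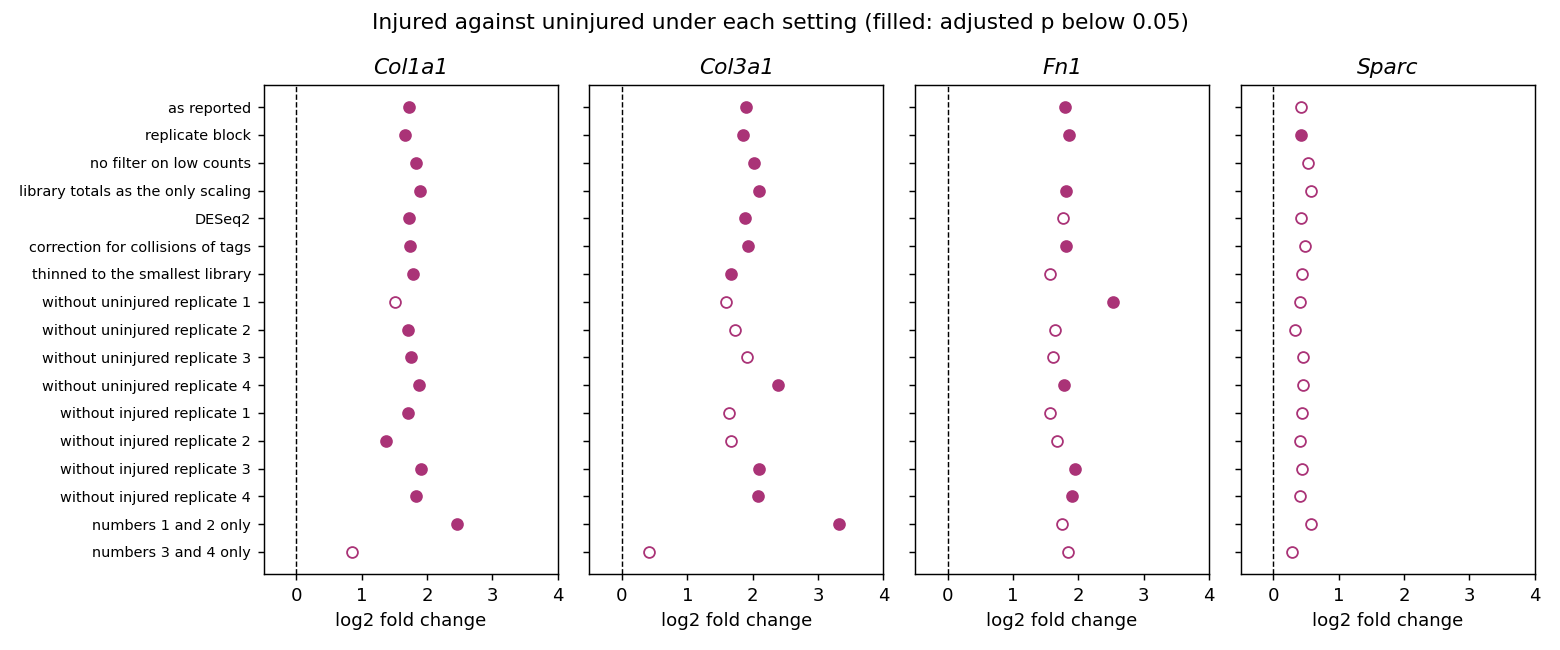
Fitted log2 fold change (horizontal axes) of 4 genes under each analysis setting (1 row per setting), filled where the adjusted p is below 0.05 and open where it is not. All points lie above 0, and Sparc is filled with the replicate block only. Col3a1 ranges from 0.41 in numbers 3 and 4 to 3.32 in numbers 1 and 2, a division chosen after its values were seen. Fn1 has no point of its own without a filter, since its reported fit has none.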

How the data were processed

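Per the labels' protocols, frozen cord was used for CEL-Seq2 libraries, which read transcript 3' ends, on an Illumina HiSeq1500. The deposited values are raw UMI counts per Ensembl gene, 1 column per sample, and the authors did not normalize them. The build Rnor_6.0 and the tools HTSeq 0.6.0 and HISAT2 2.0.4 are named, per the submitters' processing notes. For the annotation release, tag length, tag collapsing and strand setting, the sources used here give nothing. Reads of genes that overlap, on either strand, therefore cannot be separated. Title codes linked columns to samples, with 0 columns left over, and 0 entries name no gene. Of the 32883 identifiers 0 matched the RefSeq table of GRCr8, so the 19 matrix and cell type lists fixed by symbol were not analysed here.

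Counts were fitted in R 4.3.3 with edgeR 4.0.16 (filterByExpr min.count 10, min.total.count 15, TMM, glmQLFit with legacy off, glmQLFTest, no block), and p was adjusted by Benjamini-Hochberg over all 3073 genes tested. SE is the log2 fold change over the square root of F. Fn1, below the filter, was read from a fit of all genes with a count. CPM uses library totals and was tested by exact permutation of the mean difference. Intervals are exact binomial and cover counting error only. The fits were tested on simulated data. DESeq2 1.42.0 and the other alternatives are given at the end. All 5 genes were to be named, with the genes most like them in deviation from the group means (log2 CPM, prior count 2). At most 2 identifiers of the latter are printed, since they have no name. The genes and lists were chosen with earlier results of these data known.

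Library numbers come from the titles. They were taken as pairs only for the replicate block, the paired permutation and the folds by number, not in the reported fits. The reason was that each same-number correlation of deviations over the 3073 genes was over 0.1 (0.389, 0.297, 0.342 and 0.423). The highest such correlation between an injured and an uninjured library of different numbers was 0.241. No label calls the libraries paired.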

Additional observations from a re-analysis of the deposited data

How the results depend on the processing

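No log2 fold change of Col1a1, Col3a1, Fn1 or Sparc was reversed in 63 alternative values, 1 per gene and setting, and 46 kept their side of the threshold. The settings share libraries, and Sparc counts as kept where it stayed uncalled. In the 8 fits without 1 library, the side was kept in 7 for Col1a1, 3 for Col3a1, 4 for Fn1 and 8 for Sparc. With the replicate block, Sparc passed the threshold (0.43, edgeR adjusted p = 0.0341), and the block changed no other call of these genes. Fn1 lost its call with DESeq2 (1.77) and at equal depth in 1 draw (1.57). In divisions added after seeing the data, Fn1 lost it in numbers 1 and 2 (1.75) and in numbers 3 and 4 (1.84), where Col1a1 (0.86) and Col3a1 (0.41) lost it too and 0 of the set were called (edgeR, 0 at an unadjusted p under 0.05). Each division holds only 2 libraries per group, and the causes of these losses were not tested. Leaving out 1 library gave log2 fold changes of 1.37 to 1.90 for Col1a1, 1.59 to 2.39 for Col3a1, 1.57 to 2.53 for Fn1 and 0.34 to 0.46 for Sparc, and 0 to 2 of the set called higher. The 0 was without uninjured 1 (edgeR, 2 at an unadjusted p under 0.05), a fit that called 38 of all genes higher. The count was 1 without uninjured 2, uninjured 3, injured 1 or injured 2, with 46, 48, 42 and 48 of all genes. It was 2 without uninjured 4, injured 3 or injured 4, with 103, 58 and 115 of all genes.

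Differences in CPM kept their direction in all 48 alternatives, which says little. Every injured CPM of these genes lay above every uninjured one, so leaving out a library, pairing or taking logs could not have reversed the differences. Paired within numbers they were 203 (Col1a1), 384 (Col3a1), 47.2 (Fn1) and 494 (Sparc), each with an exact paired permutation p = 0.125, the smallest that 4 pairs allow, which says nothing about stability. Leaving out 1 library gave 139.5 to 244 for Col1a1, 296 to 470.0 for Col3a1, 36.4 to 54.5 for Fn1 and 444 to 533 for Sparc, with exact permutation p up to 0.0571, 0.114, 0.0857 and 0.0286.

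Over all genes, 70 were higher and 6 lower. The replicate block gave 208 and 140, no filter on low counts 225 and 13, and totals of the tested genes without TMM 110 and 2. DESeq2 called 82 higher and 19 lower. Numbers 1 and 2 alone gave 205 and 59, and numbers 3 and 4 alone gave 0 and 0 (edgeR, 111 and 60 at an unadjusted p under 0.05). Fits on 7 libraries called 38 to 115 genes higher and 0 to 15 lower, the 0 without injured 1 (edgeR, 139 lower at an unadjusted p under 0.05). Fn1 rested on 11 uninjured and 68 injured UMIs.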
